A study of Homo sapiens with 24 samples.

Results

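A set of 10 genes of secreted matrix glycoproteins and their close partners, FN1, SPARC, POSTN, TGFBI, BGN, NID1, FBLN5, FBN1, LTBP1 and THBS1, were read in HMLE cells before and after transcription was blocked. The 10 genes were taken by symbol from a table of 38849 genes, each symbol had its own entry, and all 10 passed the filter on low values (a mean of at least 10 over all libraries). HMLE is an immortalized human mammary epithelial line grown with serum, epidermal growth factor, hydrocortisone and insulin. It carried either LacZ, a bacterial enzyme gene that served as control, or RBMS3, a protein that binds RNA. Both lines received actinomycin D, an inhibitor of transcription, at 10 µg/mL, and were sampled at 0, 90, 180 and 360 min, with 3 libraries for each of the 8 combinations. The labels name no promoter driving either gene, do not say whether a line was a pool or a clone, and do not say whether the 3 libraries came from separate cultures, so the spread behind each p-value may be technical. The study asked which transcripts RBMS3 stabilizes.

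In tissues, fibroblasts and other mesenchymal cells lay down most of this matrix, and epithelial cells that take on mesenchymal traits switch many of these genes on. Fibronectin (FN1) forms the fibrils on which other proteins assemble. Fibrillin-1 (FBN1) builds microfibrils, LTBP1 anchors latent TGF-beta to them, and fibulin-5 (FBLN5) helps elastin deposit on them. Nidogen-1 (NID1) links laminin to collagen IV in basement membranes, and biglycan (BGN) is a small leucine-rich proteoglycan that binds collagen. Periostin (POSTN), TGFBI, SPARC and thrombospondin-1 (THBS1) modulate adhesion and assembly, and THBS1 also activates latent TGF-beta.

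The stretches before the transcription starts of 6 of the 10 genes are shown because they span the range of base composition. The direction of the line difference does not single out these 6, since all 10 genes were higher in RBMS3 cells. The stretches are the 250 bases before the RefSeq start on GRCh38.p14, on the gene's own strand. All 10 genes had an entry, with 13 starts in all. Capitals mark matches, on either strand, to motifs that were picked after these sequences had been seen: the TATA core TATAAA, the GC box GGGCGG, the cyclic AMP response element TGACGTCA, the E-box CAGGTG, the homeobox core TAATTA and the AP-1 site TGANTCA. The homeobox and TATA cores overlap in FBLN5, and neighbouring GC boxes run together in FN1.
FN1: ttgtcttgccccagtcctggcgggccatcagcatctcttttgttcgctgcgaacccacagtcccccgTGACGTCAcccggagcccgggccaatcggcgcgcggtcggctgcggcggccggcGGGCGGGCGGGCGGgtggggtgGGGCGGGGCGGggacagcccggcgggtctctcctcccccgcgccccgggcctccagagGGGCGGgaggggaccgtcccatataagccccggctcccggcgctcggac
LTBP1: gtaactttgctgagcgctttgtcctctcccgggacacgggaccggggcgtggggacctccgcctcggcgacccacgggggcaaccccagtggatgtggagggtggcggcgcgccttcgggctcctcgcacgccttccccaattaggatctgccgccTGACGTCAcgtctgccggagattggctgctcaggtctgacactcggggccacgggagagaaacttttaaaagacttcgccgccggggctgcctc
POSTN: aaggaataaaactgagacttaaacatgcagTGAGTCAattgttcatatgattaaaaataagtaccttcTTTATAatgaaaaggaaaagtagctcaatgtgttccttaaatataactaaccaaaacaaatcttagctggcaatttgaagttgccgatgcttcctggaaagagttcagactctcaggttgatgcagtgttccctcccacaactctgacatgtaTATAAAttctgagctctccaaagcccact
FBLN5: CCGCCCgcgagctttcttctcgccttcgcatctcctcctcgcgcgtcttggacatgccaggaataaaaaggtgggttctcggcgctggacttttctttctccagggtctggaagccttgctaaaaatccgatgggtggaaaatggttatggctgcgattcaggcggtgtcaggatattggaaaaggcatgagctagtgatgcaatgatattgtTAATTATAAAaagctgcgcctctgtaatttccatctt
BGN: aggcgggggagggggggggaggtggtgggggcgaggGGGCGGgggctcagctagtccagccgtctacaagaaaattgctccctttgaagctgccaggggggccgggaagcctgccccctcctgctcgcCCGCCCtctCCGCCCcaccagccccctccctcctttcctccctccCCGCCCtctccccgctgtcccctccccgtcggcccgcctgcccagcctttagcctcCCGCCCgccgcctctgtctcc
THBS1: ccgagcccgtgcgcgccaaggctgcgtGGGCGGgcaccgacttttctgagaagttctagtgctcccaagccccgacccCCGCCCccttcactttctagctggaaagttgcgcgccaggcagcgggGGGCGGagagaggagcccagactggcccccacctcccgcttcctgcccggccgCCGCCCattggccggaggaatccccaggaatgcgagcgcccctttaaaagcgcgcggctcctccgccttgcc

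These intervals were chr2:215436069-215436318 on the minus strand for FN1, chr2:32946703-32946952 on the plus strand for LTBP1 and chr13:37598769-37599018 on the minus strand for POSTN. They were chr14:91947033-91947282 on the minus strand for FBLN5, chrX:153494730-153494979 on the plus strand for BGN and chr15:39580829-39581078 on the plus strand for THBS1. LTBP1 had 3 starts and FBLN5 had 2, and start 1 of each is printed. The GC box was in 6 of the 10 genes (7 of the 13 starts), against 42.6% of the 35116 RefSeq promoters of the same length. The cyclic AMP response element was in FN1, 183 bases before the start, and in LTBP1, 94 bases before it, against 1.65% of all promoters. A TATA core lay 29 bases before the POSTN start and 33 before the FBLN5 start, and POSTN held another at 182 (10.7% of all promoters). POSTN also held the AP-1 site (6.57%) and FBLN5 the homeobox core (4.35%), whereas none of the 13 stretches held the E-box, found in 17.5% of all promoters. The POSTN stretch was 36.4% G and C, and 7.22% of promoters were lower, while FN1 stood at 76.4% and the median promoter at 58.0%. A match describes letters only, and libraries from 3' ends do not show which start was used.

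Libraries held 4405790 to 9727289 reads, as implied by the value of 1 read in each, with 14193 to 15697 genes detected. The RBMS3 transcript was 174 to 358 normalized counts in the 12 RBMS3 libraries and 27.6 to 165 in the 12 LacZ libraries. Libraries of a group correlated across genes with a Pearson r of at least 0.909, the lowest value involving LacZ replicate 2 at 0 min, which stood apart from its group on the third principal component. Library numbers in the labels ran from 25 to 30 at 0 min and from 34 to 51 at later times, in both lines, so a difference tied to this numbering cannot be told apart from the treatment. Of 10 mammary epithelial markers, KRT5, KRT8, KRT14, KRT17 and KRT18 were present in both lines. EPCAM and ESRP1 were 1716 ± 30.3 and 903 ± 132 in LacZ cells at 0 min (n = 3) but 0.707 ± 1.22 and 0 in RBMS3 cells, so these defining markers of the labelled cell type were nearly absent from the RBMS3 line. Summed over 10 mesenchymal markers, levels were 5091 to 7496 in LacZ libraries and 23897 to 29871 in RBMS3 libraries. VIM made up most of this sum (14468 ± 175 at 0 min and 20241 ± 739 at 360 min in RBMS3 cells), and LUM was at or near 0 in both lines. From 0 to 360 min in RBMS3 cells the means of VIM and CDH2 rose, and THY1 stood at 3800 ± 245 and 3837 ± 114. Those of COL1A1, COL1A2, COL3A1, DCN, PDGFRA and PDGFRB fell. Leukocyte markers summed to 8.49 to 82.0, with CD3E and MS4A1 at 0 in all libraries. Endothelial markers summed to 2.84 to 22.5, with CDH5 at 0 in all libraries. In these bulk libraries, fewer cells of a type and less RNA per cell cannot be told apart.

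Before actinomycin D, all 10 matrix transcripts were higher in RBMS3 than in LacZ cells. THBS1 was 1.63-fold higher, and POSTN, BGN, NID1 and FBLN5 were at or near 0 in LacZ cells, so their folds are given as lower bounds. All 10 lay higher without overlap between the 3 RBMS3 and the 3 LacZ libraries at each of the 4 times, as did 22.3% of all genes tested at 0 min, 23.0% at 90 and at 180 min and 24.2% at 360 min. In limma all 10 passed an adjusted p of 0.05 at each time, against 18.6% of all 12096 genes tested called higher at 0 min, 14.9% at 90 min, 16.2% at 180 min and 17.5% at 360 min (18.9% were called lower at 0 min and 17.7% at 360 min). POSTN, BGN, NID1, FBLN5 and LTBP1 had means under 10 in each LacZ group and passed the filter only through the RBMS3 libraries. Their place in both counts of 10 was largely set by that filter and adds no support. FN1, SPARC, TGFBI and THBS1 were well above 10 in both lines, and FBN1 had LacZ means of 7.94 to 28.8. The median difference over the 10 was 7.06 on the log2(normalized count + 1) scale at 0 min and 5.66 at 360 min, beside 0.0065 and -0.02 over all genes. Scaling on ribosomal protein transcripts moved the split of all called genes at 0 min from 49.6% higher to 26.0% higher, and all 10 matrix genes were still called higher.

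**Figure D1:**
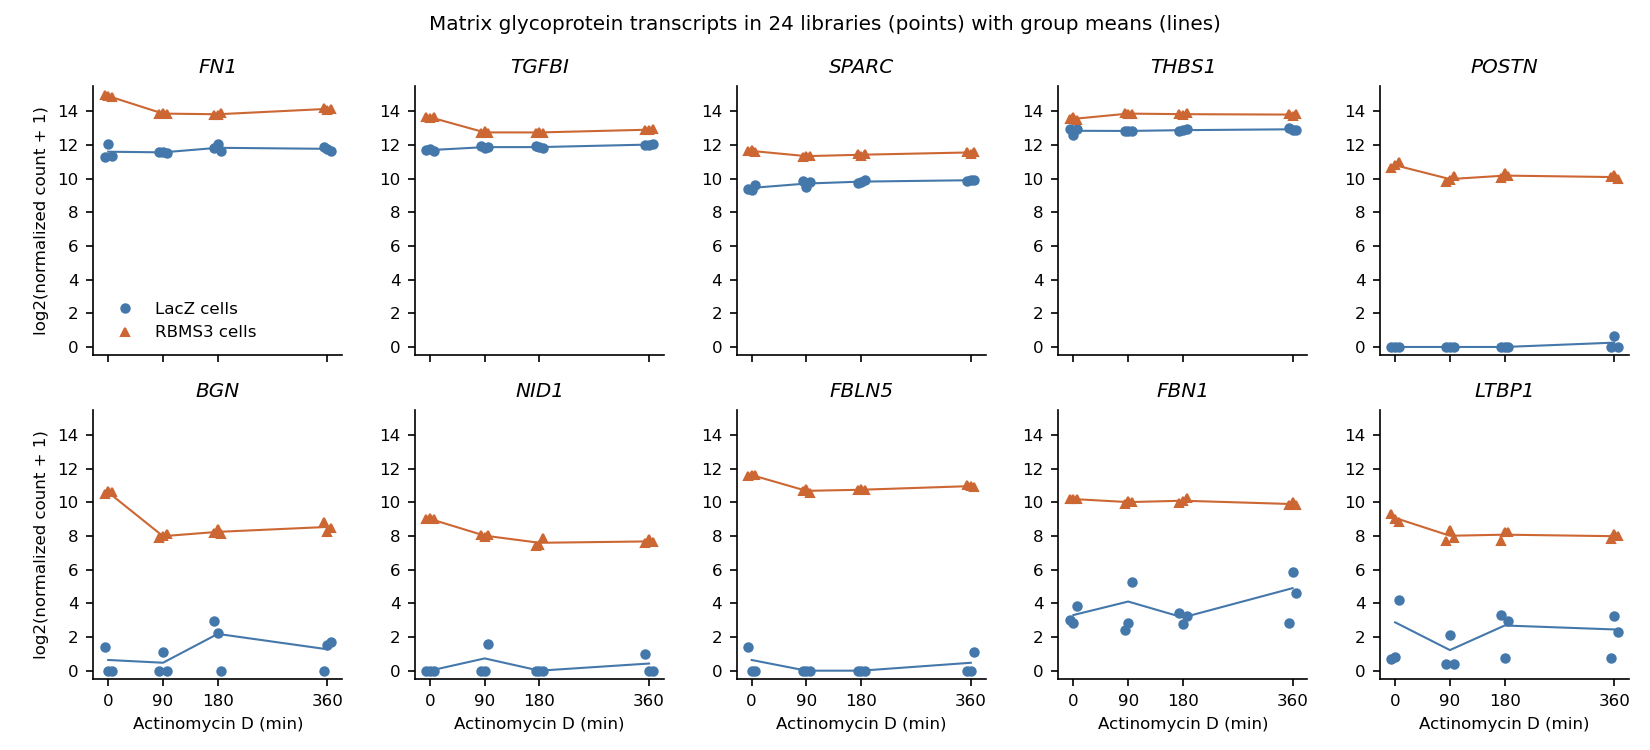
Level of each gene as log2(normalized count + 1) against minutes of actinomycin D, with 1 point per library (shifted slightly sideways by replicate) and lines through the group means. RBMS3 cells (triangles) lay above LacZ cells (circles) for all 10 genes at all 4 times. POSTN, BGN, NID1 and FBLN5 were near 0 in LacZ cells.

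Of the elastic fibre and microfibril genes, FBLN5 was 1.65, 0 and 0 normalized counts in untreated LacZ cells and 3082, 3190 and 3150 in untreated RBMS3 cells. The LacZ values stand for about 2 reads, and with an exact Poisson interval for counting error only, the ratio of means had a 95% lower bound of 1578. At 90 and 180 min all 6 LacZ libraries were at 0, and RBMS3 cells were at least 530-fold and 532-fold higher than a floor of 3 reads per library. FBN1 was 6.95, 6.25 and 13.4 in LacZ cells and 1150, 1193 and 1164 in RBMS3 cells, a ratio of means of 132 and a difference of 6.96 ± 0.59 (SE; limma adjusted p = 8.1e-09). LTBP1 was 0.588, 0.726 and 17.6 in LacZ cells and 635, 520 and 455 in RBMS3 cells, a difference of 7.16 ± 0.79. The third LacZ library set the LacZ mean of LTBP1. In the authors' transcript files the 3 LTBP1 values corresponded to 2, 2 and 11 estimated reads, so the factor between table and reads differed 4.57-fold between these libraries.

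NID1, the basement membrane linker, was not detected in the 3 untreated LacZ libraries and stood at 506, 536 and 506 in untreated RBMS3 cells, at least 182-fold above the floor. At 180 min, with LacZ libraries again at 0, RBMS3 cells held 168, 178 and 232, at least 59.6-fold above it. BGN, the collagen-binding proteoglycan, was 1.66, 0 and 0 in LacZ cells against 1452, 1639 and 1542 in RBMS3 cells at 0 min, and the ratio of means had a 95% lower bound of 774. At 180 min the LacZ libraries held 6.8, 3.8 and 0 of BGN, about 10 reads, beside 289, 346 and 272 in RBMS3 cells.

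Of the adhesion-modulating proteins, POSTN was at 0 in 11 of 12 LacZ libraries, and replicate 2 at 360 min held 0.587. RBMS3 cells held 1557, 1778 and 1991 at 0 min, at least 625-fold above the floor. TGFBI, SPARC and THBS1 were by contrast well expressed in LacZ cells. TGFBI was 3284, 3490 and 3159 in LacZ cells and 12728, 12582 and 13167 in RBMS3 cells at 0 min, a difference of 1.95 ± 0.06 (limma adjusted p = 1.4e-16). SPARC was 677, 627 and 788 against 3204, 3288 and 3092, a difference of 2.20 ± 0.09. THBS1, the least separated of the 10, was 7756, 6285 and 7947 against 11712, 12795 and 11389, a difference of 0.71 ± 0.07 (limma adjusted p = 9.2e-08).

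FN1 was 2514, 4204 and 2572 in LacZ cells and 31863, 30780 and 29284 in RBMS3 cells, a ratio of means of 9.89 and a difference of 3.35 ± 0.13 (limma adjusted p = 4.9e-14). The high LacZ value belongs to replicate 2, the library that stood apart. Its transcript file held 2282 estimated FN1 reads, and the table exceeded reads times the library's own factor by 1.80-fold, against 0.910-fold and 0.911-fold in the other LacZ libraries at 0 min. Without that library the difference was 3.59 ± 0.09.

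**Figure D2:**
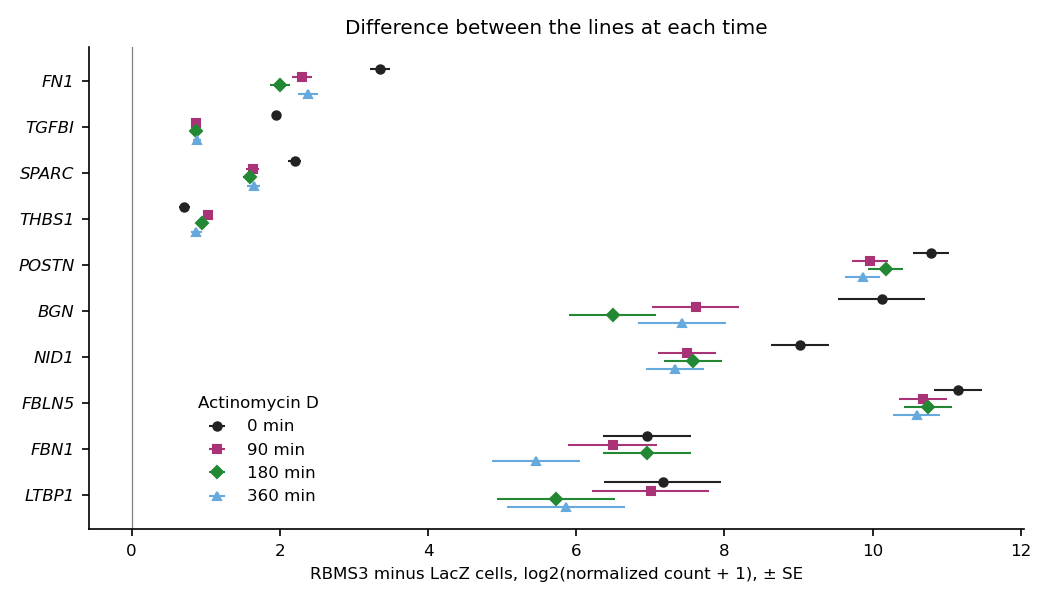
Difference between RBMS3 and LacZ cells on the log2(normalized count + 1) scale with its SE from the fit over all libraries, for each gene at 0, 90, 180 and 360 min. All 40 differences were above 0. For every gene other than THBS1 they were smaller at the 3 later times than at 0 min, for FBN1 at 180 min by little (6.95 against 6.96).

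After actinomycin D in RBMS3 cells, 5 of the 10 matrix transcripts fell in share of the library within 90 min, 1 rose and 4 were not called. At 90 min FN1, SPARC, POSTN, TGFBI and BGN were called lower and THBS1 higher, 6 of 10 against 14.5% of all genes (6.52% lower, 7.99% higher). At 180 min FN1, TGFBI, BGN and NID1 were lower and THBS1 higher, 5 of 10 against 25.9% (12.4% lower, 13.5% higher). At 360 min FN1, POSTN, TGFBI, BGN and NID1 were lower and THBS1 higher, 6 of 10 against 37.6% (18.6% lower, 19.1% higher). A rise or fall here is one in share of the library, because RNA per cell was not measured, and the 3 comparisons share the untreated libraries. Lack of overlap between times is described below without the share of all genes that also lacked it, so it adds no support to a change.

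BGN had the largest drop, from 1452, 1639 and 1542 at 0 min to 232, 253 and 274 after 90 min, followed by 289, 346 and 272 (180 min) and 445, 305 and 361 (360 min). No library at a later time overlapped those at 0 min. The mean was 16.4% of the 0 min level at 90 min and 19.6% at 180 min, and the change at 90 min was -2.61 ± 0.59 (limma adjusted p = 0.0044). FN1 went from 30642 ± 1295 (SD, n = 3) to 14879 ± 91.3 at 90 min, 14480 ± 892 at 180 min and 18060 ± 786 at 360 min. These are 48.6%, 47.3% and 58.9% of the 0 min mean, and the change at 90 min was -1.04 ± 0.13 (limma adjusted p = 1.6e-05). TGFBI went from 12826 ± 305 to 6861 ± 362, 6846 ± 226 and 7672 ± 186, or 53.5%, 53.4% and 59.8%, and passed at each time. For FN1 and TGFBI too, the 9 treated libraries lay below the 3 untreated ones.

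NID1 was 266, 243 and 266 after 90 min, then 168, 178 and 232 (180 min) and 192, 223 and 196 (360 min), all below the untreated libraries. The mean was 50.1% of the 0 min level at 90 min, which did not pass (limma adjusted p = 0.098). The change was -1.43 ± 0.39 at 180 min (limma adjusted p = 0.0098) and -1.34 ± 0.39 at 360 min (0.010), and neither passed with a pseudocount of 0.5 (0.051 and 0.052). POSTN fell from 1775 ± 217 to 1003 ± 131 at 90 min, 56.5% of the 0 min mean (limma adjusted p = 0.024), and stood at 61.4% at 360 min (0.026). Neither POSTN call held with a pseudocount of 0.5 (limma adjusted p = 0.075 and 0.076) or with no filter on low values (0.061 and 0.065). Leaving out any of 4 single libraries ended either POSTN call, with limma adjusted p of 0.077 to 0.11 at 90 min (RBMS3 replicate 2 or 3 at 0 min, replicate 1 or 2 at 90 min) and 0.072 to 0.11 at 360 min (replicate 2 or 3 at 0 min, replicate 1 or 3 at 360 min). SPARC was 80.8% of its 0 min mean at 90 min, a change of -0.31 ± 0.09 (limma adjusted p = 0.023), and 94.2% at 360 min (0.48). The SPARC call at 90 min ended when any of 5 libraries was left out (RBMS3 replicate 1 or 2 at 0 min or any at 90 min), with adjusted p of 0.052 to 0.079.

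FBLN5, LTBP1 and FBN1 did not pass at any time in the fit of all groups. FBLN5 was 52.2%, 54.6% and 63.5% of its 0 min mean at 90, 180 and 360 min, with 1638, 1767 and 1512 at 90 min and none of the 9 treated libraries reaching the untreated 3082 to 3190. LTBP1 was 47.9%, 50.2% and 47.1%, with 211, 327 and 233 at 90 min, also without overlap. FBN1, by contrast, was 88.2%, 93.3% and 81.4%. Its treated libraries lay below the untreated 1150 to 1193 at 90 and 360 min, while those at 180 min (989, 1070 and 1215) overlapped them. The SE in these tests is pooled over all 8 groups, and for genes near 0 in LacZ cells the spread of the LacZ libraries sets much of it. When only the 2 RBMS3 groups compared were fitted, 9 of 10 passed at each time, against 14.1%, 26.1% and 38.4% of all genes. FBLN5, NID1, POSTN and LTBP1 were then lower at all 3 times, with limma adjusted p at 90 min of 0.00079, 0.0018, 0.011 and 0.020. FBN1 did not pass in that fit at 90 min (0.13) or 180 min (0.41) and did at 360 min (-0.30 ± 0.08, 0.021), while SPARC passed at 90 and 180 min and not at 360 min (0.23).

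THBS1 was 11712, 12795 and 11389 at 0 min and 15007, 14686 and 14930 at 90 min, a change of 0.32 ± 0.07 (limma adjusted p = 0.0047). It stood at 124%, 121% and 119% of the 0 min mean at the 3 later times. No treated library overlapped an untreated one. The rise at 360 min (0.26 ± 0.07, limma adjusted p = 0.0077) turned to -0.13 with ribosomal protein scaling and to -0.016 with quantile normalization, and at 180 min the rise was 0.11 (limma adjusted p = 0.29) and 0.22 (0.12) in those settings.

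**Figure D3:**
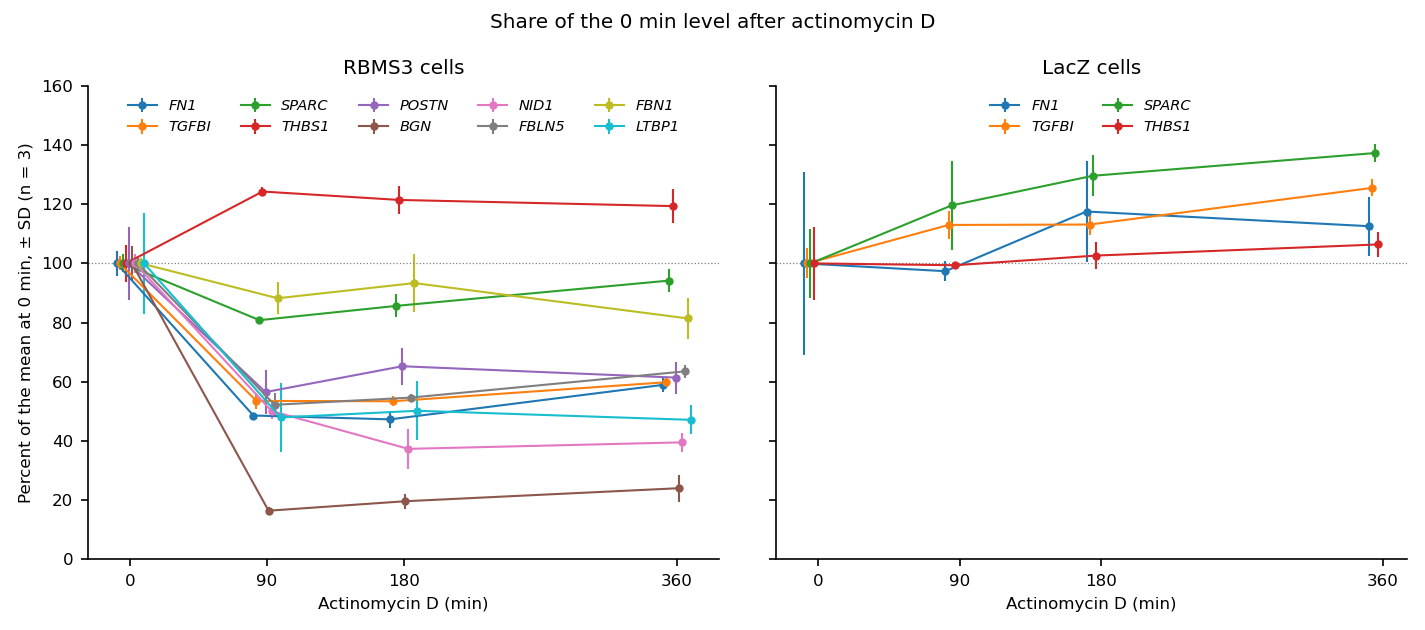
Mean level at each time as a percent of the mean at 0 min, with SD over 3 libraries, for the 10 genes in RBMS3 cells and for the 4 genes with a mean of at least 50 normalized counts in LacZ cells. In RBMS3 cells BGN dropped to 16.4% by 90 min and THBS1 rose to 124%, and in LacZ cells SPARC stood at 137% at 360 min.

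Between 90 and 360 min, when both groups had been treated, 9 of the 10 genes were not called in limma. TGFBI was called (0.16 ± 0.06, limma adjusted p = 0.0496), 1 of 10 against 16.0% of all genes, and its sign turned with quantile normalization (-0.10) and ribosomal protein scaling (-0.25). Leaving out any of 21 of the 24 libraries ended this call, with limma adjusted p of 0.050 to 0.19. In edgeR's quasi-likelihood test on the authors' estimated reads, FN1 was called (0.29, adjusted p = 0.020) and TGFBI was not (0.23, 0.070), with 14.4% of 13320 genes called. The FN1 change in limma was 0.28 ± 0.13 (adjusted p = 0.18), or 0.28 ± 0.08 (0.014) without LacZ replicate 2 at 0 min. POSTN differed by 0.12 ± 0.24 and BGN by 0.54 ± 0.59, with limma adjusted p of 0.80 and 0.62.

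Of the 5 keratins present, KRT14, KRT17 and KRT5 fell in RBMS3 cells by 90 min and stayed lower. KRT8 was called lower at 180 min, but its mean at 360 min was not below that at 0 min. KRT14 went from 6059 ± 140 at 0 min to 791 ± 83.2 at 90 min and 1184 ± 21.4 at 360 min, KRT17 from 2993 ± 82.3 to 668 ± 19.6 and 931 ± 48.8, and KRT5 from 2652 ± 199 to 714 ± 64.5 and 1033 ± 105. KRT8 was 1424 ± 40.5, 1155 ± 331 and 1534 ± 85.3 at these times, and KRT18 was 578 ± 81.2, 552 ± 28.5 and 756 ± 64.9, called higher at 360 min (limma adjusted p = 0.023). The sum over the 10 epithelial markers was 13603 to 13913 in RBMS3 libraries at 0 min and 3677 to 5694 at later times. In LacZ cells the same sum was 15982 to 17700 at 0 min and 17573 to 22450 later, and KRT14 stood at 2555 ± 465 at 0 min and 2517 ± 139 at 90 min. The part of these keratin changes in the drop of the matrix genes was not tested. The sizes of the differences between the lines at 90, 180 and 360 min do not use the 0 min libraries. Their SE and p-values in limma do, because the spread is pooled over all 8 groups.

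In LacZ cells none of the 10 passed at 90 min (limma; 6.18% of all genes did). At 180 min SPARC (0.38 ± 0.09, limma adjusted p = 0.0058) and TGFBI (0.18 ± 0.06, 0.033) were higher, 2 of 10 against 14.6% of all genes (7.75% higher). At 360 min the same 2 were higher, SPARC by 0.46 ± 0.09 (0.00051) and TGFBI by 0.33 ± 0.06 (0.00014), against 28.5% (14.9% higher). SPARC was 677, 627 and 788 at 0 min and 934, 965 and 974 at 360 min, and TGFBI was 3284, 3490 and 3159 and then 4057, 4163 and 4248, neither with overlap. With ribosomal protein scaling SPARC was 0.033 at 180 min (limma adjusted p = 0.84) and -0.065 at 360 min, and TGFBI was -0.17 at 180 min and was called lower at 360 min (-0.20, adjusted p = 0.013). With quantile normalization TGFBI did not pass at 180 min (0.043, limma adjusted p = 0.68) or 360 min (0.13, 0.099), and with no filter it did not pass at 180 min (0.071). The TGFBI call at 180 min ended when any of 5 libraries was left out (LacZ replicate 1 or 3 at 0 min or any at 180 min), with adjusted p of 0.050 to 0.12. Leaving out LacZ replicate 3 at 0 min or 2 at 90 min gave SPARC a call at 90 min (0.021 and 0.022), and leaving out replicate 2 at 0 min gave TGFBI one (0.017). With only the 2 LacZ groups fitted, neither passed at 180 min (3.20% of all genes did) or at 360 min (11.7%), with limma adjusted p of 0.055 and 0.060 at 360 min. FN1 did not pass (0.21 ± 0.13 at 360 min), but without LacZ replicate 2 at 0 min it was called higher, by 0.51 ± 0.09 at 180 min (adjusted p = 0.00043) and 0.45 ± 0.09 at 360 min (0.00063). THBS1 was 99.4%, 103% and 106% of its 0 min mean. Between 90 and 360 min none of the 10 was called, against 8.50% of all genes.

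The difference between the lines in the change from 0 min was tested as an interaction. The RBMS3 change was below the LacZ change for FN1, SPARC and TGFBI at 90 min (3 of 10 against 5.23% of all genes, 2.52% in that direction), with values of -1.04 ± 0.19, -0.56 ± 0.12 and -1.08 ± 0.08. The SPARC value at 90 min did not pass when only the 4 groups involved were fitted (limma adjusted p = 0.094) or with ribosomal protein scaling (-0.34, 0.11). At 180 min BGN joined them, at -3.63 ± 0.83 (limma adjusted p = 0.011), 4 of 10 against 6.36% (2.91% in that direction). At 360 min FN1 (-0.97 ± 0.19), SPARC (-0.55 ± 0.12) and TGFBI (-1.07 ± 0.08) were called, 3 of 10 against 7.77% (3.46% in that direction), with BGN at -2.70 ± 0.83 (limma adjusted p = 0.051). BGN in LacZ cells stood for about 2 reads at 0 min and 10 at 180 min, too few to measure a loss there, and its interaction was not called when only the 4 groups involved were fitted (0.062). THBS1 did not pass (0.32 ± 0.10 at 90 min, limma adjusted p = 0.080). Without LacZ replicate 2 at 0 min it did at all 3 times, with 0.42 ± 0.07, 0.34 ± 0.07 and 0.27 ± 0.07 (adjusted p = 0.00087, 0.0044 and 0.022). For POSTN, NID1, FBLN5, FBN1 and LTBP1, too, LacZ cells held too few reads to measure a loss, so a difference in loss was not detectable at this depth.

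The 10 genes followed each other to different degrees within the 12 RBMS3 libraries. Pearson r of log2(normalized count + 1) was 0.97 to 0.98 among FN1, TGFBI, BGN and FBLN5, and THBS1 ran opposite to the other 9, with r from -0.93 with TGFBI to -0.52 with FBN1. Of the 9 genes other than THBS1, FBN1 had r of 0.18 with SPARC and 0.74 with LTBP1. Outside the set, the closest genes in those 12 libraries were KRT17 for FN1 (0.985) and TGFBI (0.989), NNMT for BGN (0.995), TIMP1 for FBLN5 (0.991), JUN for NID1 (0.982), ENO2 for POSTN (0.947) and DESI2 for THBS1 (0.959). Over all 24 libraries, where the line difference dominates, they were TIMP1 for FN1 (0.995), CADM3 for POSTN (0.999) and FBLN5 (0.997), COL4A4 for NID1 (0.995) and VIM for THBS1 (0.987). These values describe libraries that share treatment and time, and carry no test.

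Other matrix genes differed between the lines at 0 min in both directions, as did all genes tested (18.6% higher and 18.9% lower). Listed genes near 0 in 1 line could pass the filter on low values only through the other, so the counts below add no support for them. Of 12 tested elastic fibre and microfibril genes, 9 were higher in RBMS3 cells and 1 was lower, with a median of 2.39. FBN2, a second fibrillin, was 431 ± 48.6 against 36.0 ± 34.6 normalized counts (n = 3 each here and below), the fibulin EFEMP1 845 ± 42.4 against 72.7 ± 9.04, and LOX, which crosslinks elastin and collagen, 500 ± 23.9 against 39.4 ± 7.63. MFAP2, a microfibril protein, was lower, at 4.55 ± 4.53 against 51.8 ± 23.8. Of 17 basement membrane genes, 9 were higher and 1 lower (median 1.20). COL4A4, a collagen IV chain, was 314 ± 13.4 against 0 in all 3 LacZ libraries, at least 111-fold above the floor, and the laminin chain LAMA4 was 190 ± 57.0 against 9.71 ± 7.41, while TINAGL1 was lower, at 59.9 ± 1.75 against 1230 ± 329.

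Of 11 matricellular genes, 7 were higher and 1 lower (median 1.82). CCN2 was 2099 ± 125 against 189 ± 86.5 and CCN1 3783 ± 149 against 1339 ± 1035, and SMOC1 was lower, by a log2 difference of -4.67 ± 0.69 (SE). Of 16 listed proteoglycan genes only 3 passed the filter, and all 3 were higher. DCN (decorin, a relative of BGN) was at 168 ± 6.48 against 1.15 ± 2.00 and VCAN at 734 ± 161 against 56.8 ± 43.2. DCN was near 0 in each LacZ group and passed the filter only through RBMS3 libraries. Of 20 matrix receptor genes, 9 were higher and 8 lower (median 0.12). The integrin chains ITGB4, of hemidesmosomes, and ITGB6 were lower, at 80.4 ± 30.9 against 1353 ± 306 and 15.2 ± 9.67 against 362 ± 96.7. The syndecan SDC3 (log2 difference 5.20 ± 0.40, SE) and the collagen receptor DDR2 (92.9 ± 67.8 against 14.0 ± 19.5) were higher.

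**Figure D4:**
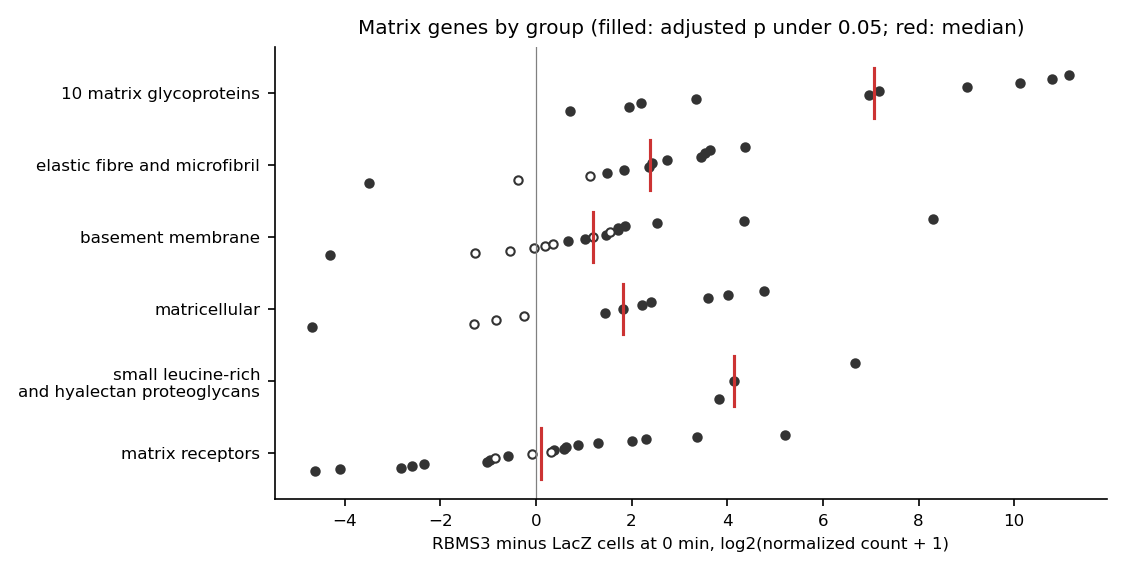
Difference between RBMS3 and LacZ cells at 0 min, log2(normalized count + 1), for the 10 matrix glycoproteins and 5 other groups of matrix genes, with 1 point per tested gene (filled where the limma adjusted p was under 0.05) and a red line at the median. The 10 had a median of 7.06, the elastic fibre group 2.39 and the receptors 0.12. The COL4A4 point, at 8.30, was fitted against LacZ libraries at 0 and depends on the pseudocount.

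At 360 min of actinomycin D in RBMS3 cells, 1 of 12 elastic fibre genes was lower (LTBP3, 154 ± 23.3 from 255 ± 7.16), and of 17 basement membrane genes 2 were higher and 5 lower. TINAGL1 rose from 59.9 ± 1.75 to 432 ± 70.4, and COL18A1 fell from 263 ± 21.1 to 66.1 ± 19.1. Of 11 matricellular genes 3 were lower, CCN1 from 3783 ± 149 to 25.3 ± 3.81, CCN2 from 2099 ± 125 to 405 ± 39.1 and SPOCK1 from 1280 ± 279 to 466 ± 66.2. DCN was lower, at 35.6 ± 27.7 from 168 ± 6.48, and the other 2 proteoglycan genes did not pass. Of 20 receptor genes 3 were higher, among them SDC1 (374 ± 36.9 from 285 ± 15.6), and 5 lower, among them CD47, a receptor for THBS1 (273 ± 20.3 from 504 ± 92.1). In this comparison 37.6% of all genes tested were called (19.1% higher and 18.6% lower), and the share called in either direction ran near or below that in all 5 groups.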

How the data were processed

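Polyadenylated RNA of 24 libraries was read with a 3' tag method (QuantSeq), per the labels' protocols. The submitters' processing notes list Trim Galore 0.6.6 and Salmon 1.4.0, and also DESeq2 1.32.0. The build of the genome was, in the sources used here, not given. The deposited data were a table of normalized counts, a signal per gene and library that is not whole reads divided by a library factor, and, from the authors and per the file headers, estimated counts per transcript. The title of the sample and the name of the attached transcript file disagreed for 12 of 24 samples, so estimated counts were used from the other 12 (LacZ at 0 min, RBMS3 at 90, 180 and 360 min), rounded for edgeR 4.0.16. Of the estimated reads, 95.2% to 95.7% had a gene name.

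Table columns were matched to samples by title. The test was limma 3.58.1 (R 4.3.3, trend on, two-sided) on log2(normalized count + 1). A single model held all 8 groups, and p-values were adjusted by Benjamini-Hochberg over 12096 genes, those with a mean of at least 10. A gene was called at an adjusted p under 0.05. The scripts were tested on simulated data. Folds against groups at 0 used a floor of 3 reads per library, and intervals for 1 to 3 implied reads were exact Poisson at 95%. Depth sets the precision of low values, and floors and intervals cover counting error only. The 10 genes and the lists of other matrix genes and cell type markers were chosen with earlier results of these data known. All 10 genes were named in each comparison. Of each list, up to 4 genes were named that passed, reached a mean of 50 in the higher group, did not overlap between groups and had the largest differences. The 3 genes closest in pattern to each of the 10 were ranked by Pearson r, and the closest is given for some of the 10 only. Same-numbered libraries did not deviate together (mean r of deviations 0.0044, from -0.11 to 0.12), so the numbers were not taken as pairs.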

Additional observations from a re-analysis of the deposited data

Results flagged for a closer look

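By the interaction in limma, the change after actinomycin D was called different between the lines at 1 or more of the 3 times for 4 of the 10 genes. At 90, 180 and 360 min 3, 4 and 3 of the 10 were called, against 5.23%, 6.36% and 7.77% of all genes tested. BGN, 1 of the 4 genes, was called at 180 min alone. For FN1, whose product forms matrix fibrils, the RBMS3 change minus the LacZ change was -1.04 after 90 min, -1.35 after 180 min and -0.97 after 360 min on the log2(normalized count + 1) scale. For TGFBI it was -1.08, -1.08 and -1.07 at the 3 times. For SPARC it was -0.56, -0.60 and -0.55, and the 90 min value did not pass with only the groups compared fitted (limma adjusted p = 0.094) or with ribosomal protein scaling (0.11). For BGN it was -3.63 at 180 min, but LacZ cells held about 2 BGN reads at 0 min and 10 at 180 min, too few to measure a loss, and the value did not pass with only the groups compared fitted (0.062). In the fit of all groups, FN1, TGFBI and BGN fell in RBMS3 cells and were not called lower in LacZ cells. TGFBI was called higher in LacZ cells at 180 and 360 min in that fit. SPARC was called lower in RBMS3 cells at 90 min alone, and higher in LacZ cells at 180 and 360 min. All 10 of these values share the 3 RBMS3 and 3 LacZ libraries at 0 min, so they are not independent of each other. The keratins KRT14, KRT17 and KRT5 also fell in RBMS3 cells between 0 and 90 min, and their part in these values was not tested.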

How the results depend on the processing

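The 10 genes were all called higher in RBMS3 cells at each of the 4 times in all alternative settings and with each library left out. For POSTN, BGN, NID1, FBLN5 and LTBP1, which passed the filter on low values only through RBMS3 libraries, this adds no support. Of 5110 values of single genes under alternatives, 4941 kept their direction and their side of the threshold or were called in neither setting, 64 lost a call, 95 gained one and 10 turned direction. The number of the 10 called changed as follows. With only the groups compared fitted, 9 were called in RBMS3 cells at 180 min (5 in the fit of all groups), 3 between 360 and 90 min (1), and 0 in LacZ cells at 180 and at 360 min (2 each). With a pseudocount of 5, 7 were called in the line difference of the 90 min change and 6 in that of the 360 min change (3 each), and 0 in RBMS3 cells between 360 and 90 min. With quantile normalization these were 5 and 7 for the line differences, and 1 was called in LacZ cells at 180 min. With ribosomal protein scaling 6 were called in the line difference of the 360 min change, 2 in RBMS3 and 1 in LacZ cells between 360 and 90 min, and 1 in LacZ cells at 180 min. Each of these counts for the line differences includes at least 1 of BGN, POSTN, NID1, FBLN5, FBN1 and LTBP1. LacZ cells held too few reads of those genes to measure a loss, so their calls do not show a difference in loss. The number called over all genes is given below where it moved by over 1.5 times. With no filter, 1 was called in LacZ cells at 180 min and 0 in RBMS3 cells between 360 and 90 min. A minimum mean of 50 gave 1 in LacZ cells at 90 min, and median-ratio scaling gave 0 in RBMS3 cells between 360 and 90 min. The replicate block also gave 0 there and changed no other count by over 1.5 times. The cause was not tested.

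With libraries left out in turn, the counts were 4 to 7, 5 to 7 and 5 to 7 in RBMS3 cells at 90, 180 and 360 min, 0 to 1, 1 to 3 and 2 to 3 in LacZ cells, 0 to 2 and 0 to 1 between 360 and 90 min in RBMS3 and LacZ cells, and 3 to 4, 4 to 5 and 3 to 4 for the line difference in change. Leaving out single LacZ libraries also gave calls to FBLN5 in RBMS3 cells at 90, 180 and 360 min (up to 6 libraries), SPARC and POSTN at 180 min, NID1 at 90 min, BGN in the line difference of the 90 and 360 min changes, NID1 in the latter, and BGN and FBN1 within LacZ cells. LacZ cells held too few BGN, NID1 and FBN1 reads to measure a loss. The values that turned direction with ribosomal protein scaling were SPARC in LacZ cells at 360 min (-0.065), TGFBI in LacZ cells at 180 min (-0.17) and 360 min (-0.20) and in RBMS3 cells between 360 and 90 min (-0.25), THBS1 in LacZ cells at 180 min (-0.30), 360 min (-0.43) and between 360 and 90 min (-0.22), and THBS1 in RBMS3 cells at 360 min (-0.13). With quantile normalization they were TGFBI in RBMS3 cells between 360 and 90 min (-0.10) and THBS1 in RBMS3 cells at 360 min (-0.016). Ribosomal protein scaling moved the median of all genes by over 0.1 in most comparisons, to -0.49 in LacZ and -0.39 in RBMS3 cells at 360 min (0.03 and -0.006 as reported) and to -0.29 in the line difference at 0 min (0.0065).

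Over all genes, the number called moved by over 1.5 times in these settings. With only the groups compared it was 87, 387 and 1419 in LacZ cells at 90, 180 and 360 min (747, 1769 and 3442 in the fit of all groups), and 295, 302 and 455 for the line difference in change (633, 769 and 940). With ribosomal protein scaling it was 2913 in RBMS3 and 1762 in LacZ cells between 360 and 90 min (1932 and 1028) and 1127 for the line difference in the 90 min change. With quantile normalization those between 360 and 90 min were 1168 and 654. Without LacZ replicate 1 at 0 min, 1 and 3 at 90 min, it was 1161, 392 and 415 in LacZ cells at 90 min, and without replicate 1 at 90 min it was 671 between 360 and 90 min. The share called higher in RBMS3 cells at 360 min went from 50.7% to 16.8% with ribosomal protein scaling, and that in LacZ cells from 52.3% to 3.0%. Low depth limits values under 3 reads, which covers 4 of the genes in LacZ cells (POSTN, BGN, NID1 and FBLN5) in most libraries.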

Other observations

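Among the mesenchymal markers, both collagen I chains were higher in RBMS3 cells. COL1A1, a chain of collagen I, was 2516 ± 61.5 normalized counts in RBMS3 cells and 48.5 ± 11.6 in LacZ cells at 0 min (SD, n = 3), and COL1A2, its partner chain, was 669 ± 46.5 against 2.69 ± 4.67. At 360 min of actinomycin D COL1A1 in RBMS3 cells was 634 ± 55.3, a change of -1.99 ± 0.43 (SE; limma adjusted p = 0.00095). CDH2, the N-cadherin gene, went the other way, from 2160 ± 76.7 to 3976 ± 46.2 (0.88 ± 0.08). COL3A1 was 780 ± 1057 at 0 min, so 1 library set its mean, and 45.5 ± 2.07 at 360 min.

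Of the marker lists, 8 of 10 mesenchymal genes were tested, and LUM and PDGFRA did not pass the filter. All 8 were higher in RBMS3 cells at 0 min and 7 of 8 at 360 min, against 18.6% and 17.5% of all genes tested. COL1A2, COL3A1, DCN and PDGFRB had means under 10 in each LacZ group and passed the filter only through RBMS3 libraries. Their place in these counts adds no support. Of 9 tested epithelial genes, 1 was higher (KRT14, a basal keratin) and 6 were lower at 0 min, and 9 were lower at 360 min, against 18.9% and 17.7% of all genes called lower. EPCAM, CDH1, TP63 and ESRP1 had means under 10 in each RBMS3 group and passed the filter only through LacZ libraries, so they too add no support. The 1 leukocyte gene with enough counts to test was lower in RBMS3 cells at both times, and 0 of the 6 endothelial genes had enough counts to test.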
